A study of Homo sapiens with 3 samples.

Results

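HSPA5, HSP90B1, CALR, SDF2L1, DNAJB9, PDIA4, PDIA6, CRELD2, HERPUD1 and XBP1 form a set of 10 genes, of 19912 features measured, that serve protein folding in the endoplasmic reticulum (ER) and its stress response. They were chosen by gene symbol, and each symbol matched 1 feature; the rule uses no measured value, but the genes were proposed with earlier results of these data known. Single-cell RNA was counted in HCT116, an established line of human colorectal carcinoma, which carried a nuclear H2B-GFP label and grew on an organ-on-chip, a perfused device with an upper and a lower channel. The question the design poses is how cyclic, gut-like stretch and movement into the lower channel go with the transcriptome. The stretched bottom library (HCT116-H2b-GFP, +peristalsis, invaded cells) held 1951 kept cells, the stretched top library (+peristalsis, non-invaded) 20121, and the unstretched top library (labelled not stretched, -peristalsis, non-invaded) 17206. All 3 came from the same line, were detached with trypsin and were sorted for GFP, the stretched cells after 6 days of stretch, and there was 1 library a group. A difference between libraries is therefore given by its size, without a test, and intervals (95%) cover counting error only.

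The unfolded protein response balances the load of client proteins in the ER against its folding capacity. When unfolded proteins accumulate, the chaperone BiP (HSPA5) leaves the sensors IRE1, ATF6 and PERK. IRE1 splices XBP1 mRNA into the form that encodes an active transcription factor, cleaved ATF6 moves to the nucleus, and PERK phosphorylates eIF2 alpha, which raises translation of ATF4. XBP1 and ATF6 act on ER stress response elements in the promoters of chaperone genes, and the gut epithelium is a tissue in which the IRE1 to XBP1 arm has long been studied.

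The promoter sequences are shown because 8 of the 10 genes hold one of these elements near a start site. RefSeq promoter windows (GRCh38.p14, 250 bases before to 50 after the start site) were found for all 10 genes, 13 windows in all. The gene spans given further below came from GENCODE, whose ends can differ from the RefSeq start sites. The stretches printed for HSP90B1, PDIA6 and CRELD2 lie inside those spans, and those for HERPUD1 and XBP1 do in part. The ER stress response element (ERSE, CCAAT and CCACG with 9 free bases between) was matched in windows of 6 of the 10 genes, and ERSE-II (ATTGG and CCACG with 1 free base between) in those of 2 more. For PDIA6 and XBP1, another window of the same gene held neither motif. Both strands were searched, and the motifs share the core CCACG, which 38.1% of all windows held. Of 35116 human promoter windows of that length, 0.0769% held ERSE and 0.0541% held ERSE-II. In the stretches below, read 5′ to 3′ on the gene's strand and ending upstream of the start site, the motif is in capitals. In HSP90B1 at its second element, and in CALR, SDF2L1 and CRELD2, it lies in the reverse orientation.
HSPA5 (chr9:125241371-125241429, minus strand, ERSE): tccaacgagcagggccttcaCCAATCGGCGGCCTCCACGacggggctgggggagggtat
HSP90B1 (chr12:103930196-103930254, plus strand, ERSE): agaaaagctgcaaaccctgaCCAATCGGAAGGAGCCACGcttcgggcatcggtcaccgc
HSP90B1 (chr12:103930301-103930359, plus strand, ERSE): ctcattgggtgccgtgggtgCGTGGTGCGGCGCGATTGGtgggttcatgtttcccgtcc
CALR (chr19:12938364-12938422, plus strand, ERSE): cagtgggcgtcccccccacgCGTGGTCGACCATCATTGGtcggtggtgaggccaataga
SDF2L1 (chr22:21642094-21642144, plus strand, ERSE-II): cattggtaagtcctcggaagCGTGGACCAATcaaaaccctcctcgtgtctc
PDIA6 (chr2:10812833-10812891, minus strand, ERSE): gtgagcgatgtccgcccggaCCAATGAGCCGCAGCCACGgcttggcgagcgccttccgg
CRELD2 (chr22:49918534-49918592, plus strand, ERSE): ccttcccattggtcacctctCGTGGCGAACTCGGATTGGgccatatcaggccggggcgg
HERPUD1 (chr16:56932005-56932055, plus strand, ERSE-II): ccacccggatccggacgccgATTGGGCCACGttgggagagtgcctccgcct
XBP1 (chr22:28800583-28800641, minus strand, ERSE): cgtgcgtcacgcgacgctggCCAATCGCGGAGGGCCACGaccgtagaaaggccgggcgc

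Neither motif was found in these windows for DNAJB9 and PDIA4. The UPR element TGACGTGG, present in 0.729% of all windows, and an ATF4-type element, TGATGCAAT, present in 0.236%, were in none of the 10 genes' windows. The motif closest to a start site was that of XBP1, 52 to 34 bases before it, followed by that of HSPA5, 66 to 48 bases before it. Of 5 other measured genes with ERSE, 0 were at least 1.5-fold higher and 1 was lower in the stretched bottom than in the stretched top library. Of 11 with ERSE-II, 1 was higher and 0 were lower. These counts are near the background, since 7.80% of 7158 measured genes with a promoter window were higher. A match describes the letters of the window, not a bound site.

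The libraries differed in depth. The median kept cell held 40387 UMIs (unique molecular identifiers, 1 per captured transcript) in the stretched bottom, 9384 in the stretched top and 10964 in the unstretched top library. The median mitochondrial share of UMIs was 4.09% in stretched bottom, 10.4% in stretched top and 9.64% in unstretched top cells. Depth and channel cannot be told apart where they run together. Kept cells of the stretched bottom library shared 9 barcodes with the stretched top and 6 with the unstretched top, and the top libraries shared 88. Levels are given in CPM, a gene's UMIs scaled to the library's total UMIs and not to gene length. All 8 epithelial markers were measured, with EPCAM at 501 CPM in stretched bottom, 389 in stretched top and 386 in unstretched top cells, while CDH1 and CLDN3 were at least 1.5-fold lower in the stretched bottom than in the stretched top library. The 8 endothelial markers summed to 8.62 CPM in stretched bottom, 4.03 in stretched top and 5.00 in unstretched top cells, with CLDN5 at 0 UMIs in the stretched top. In the stretched bottom CLDN5 had 59 UMIs, in 0.154% of cells. PECAM1 stood at 1.74 CPM in stretched bottom, 0.564 in stretched top and 0.574 in unstretched top cells. CDH5 stood at 0.744, 0.0569 and 0.0329 CPM in that order, while ESAM was highest in unstretched top cells, at 2.72 CPM. The 8 fibroblast markers summed to 4.50 CPM in stretched bottom, 5.69 in stretched top and 8.81 in unstretched top cells, with PDGFRA at 0 in the stretched bottom and DCN at 0 in the unstretched top. Most of these sums was COL1A1, at 4.31 CPM in stretched bottom, 5.09 in stretched top and 7.79 in unstretched top cells. The 8 leukocyte markers summed to 0.274 CPM in stretched bottom, 3.33 in stretched top and 2.14 in unstretched top cells, with CD3E and MS4A1 at 0 in the stretched bottom and FCGR3A at 0 in the unstretched top. LYZ alone stood at 2.96 CPM in stretched top and 1.74 in unstretched top cells. PTPRC stood at 0.0391 CPM in stretched bottom, 0.0332 in stretched top and 0.0565 in unstretched top cells. The part of other cell types in the results was not tested.

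In the stretched bottom library the 10 genes together took 3240 CPM, against 2247 CPM in the stretched top library, a ratio of 1.44 (1.43 to 1.45). All 10 ratios were above 1, but 2 of 10 reached 1.5-fold, CRELD2 and CALR, and 0 were 1.5-fold lower. Of 8870 genes that reached 10 CPM in one library or the other, 7.93% were 1.5-fold higher and 11% were 1.5-fold lower, 18.9% in all. The median log2 ratio (1 CPM added) was 0.46 for the 10 genes and -0.00 for all genes. The stretched top library took 2247 CPM against 2384 CPM in the unstretched top, a ratio of 0.943 (0.939 to 0.946), with 0 of 10 genes past 1.5-fold in either direction. In that comparison 0.175% of 9119 genes were 1.5-fold higher and 0.592% lower, 0.768% in all. The median log2 ratio there was -0.08 for the 10 genes and -0.16 for all genes.

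**Figure D1:**
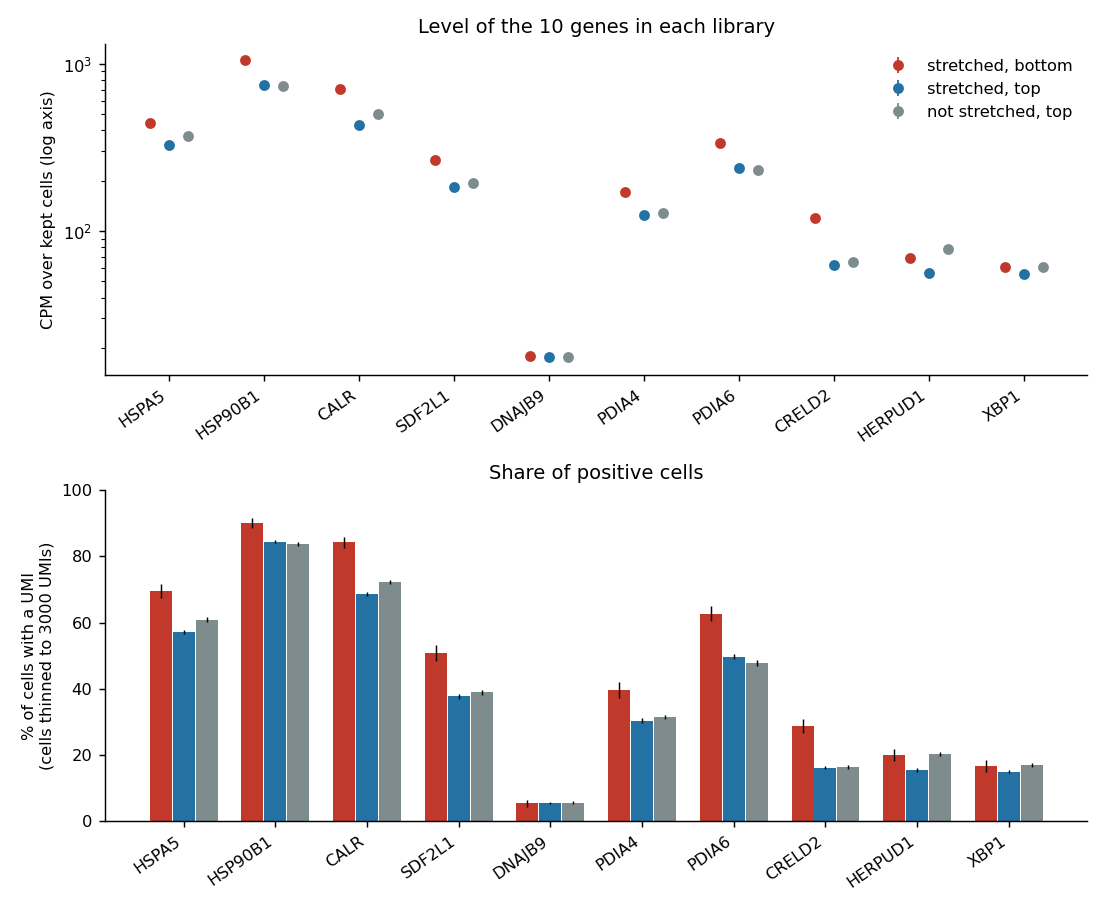
The upper panel plots CPM on a log axis and the lower panel the percentage of cells with at least 1 UMI after thinning to 3000 UMIs, for each gene in the stretched bottom (red), stretched top (blue) and unstretched top (grey) libraries; bars are 95% counting intervals. CRELD2 stands highest above both top libraries in the stretched bottom library, HERPUD1 is highest in the unstretched top, and DNAJB9 is level at 17.6 to 17.9 CPM.

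Of the general chaperones, HSPA5 encodes BiP, the ER HSP70 and the main brake on the stress sensors (ENSG00000044574, chr9:125234853-125241330). It stood at 439 CPM (435 to 444) in the stretched bottom, 327 (325 to 330) among stretched top and 369.8 (367 to 372) in the unstretched top library. The stretched bottom was highest and the stretched top lowest, with ratios of 1.34 for bottom over stretched top and 0.884 for stretched over unstretched top. The latter was a log2 ratio of -0.18, close to the median of all genes at -0.16. HSP90B1 encodes GRP94, the ER HSP90 that folds integrins and Toll-like receptors (ENSG00000166598, chr12:103930107-103953645). It was the most abundant of the 10, at 1060.3 CPM in the stretched bottom, 750.4 in the stretched top and 735 in the unstretched top library. The bottom library was 1.41-fold above the stretched top, while the ratio of stretched over unstretched top was 1.02. CALR encodes calreticulin, a calcium-binding lectin chaperone for monoglucosylated glycoproteins (ENSG00000179218, chr19:12938578-12944489). It stood at 703 CPM in the stretched bottom, 432 in the stretched top and 501 in the unstretched top library. Its ratio of 1.63 (1.61 to 1.65) for bottom over stretched top passed the threshold, and against the unstretched top library it was 1.40.

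The cochaperones diverged. SDF2L1 encodes a partner of the ER J-protein DNAJB11 that keeps clients soluble (ENSG00000128228, chr22:21642261-21644298). Its level was 265 CPM in the stretched bottom, 183 in the stretched top and 194 in the unstretched top library. That is 1.45-fold for bottom over stretched top, just under the threshold. DNAJB9 encodes ERdj4, the J-protein that returns BiP to IRE1 and so represses it (ENSG00000128590, chr7:108569568-108574850). It was the least abundant, at 17.9 CPM (17.0 to 18.9) in the stretched bottom, 17.6 (17.0 to 18.1) among stretched top and 17.6 (17.0 to 18.2) in the unstretched top library. The 3 intervals overlap, and the ratio of bottom over stretched top was 1.02 (0.958 to 1.09).

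The disulfide isomerases, which form and rearrange disulfide bonds in new secretory proteins, were both higher in the bottom library. PDIA4, or ERp72 (ENSG00000155660, chr7:149003062-149028641), stood at 171 CPM in the stretched bottom, 125 in the stretched top and 129 in the unstretched top library. PDIA6, which also attenuates IRE1 and PERK signalling (ENSG00000143870, chr2:10783391-10837977), stood at 334 CPM in the stretched bottom, 239 in the stretched top and 232 in the unstretched top library. For bottom over stretched top the ratio was 1.36 for PDIA4 and 1.40 for PDIA6, and for stretched over unstretched top 0.973 for PDIA4 and 1.03 for PDIA6. CRELD2, a stress-induced ER protein with EGF-like repeats that has isomerase activity (ENSG00000184164, chr22:49918167-49927540), stood at 119.6 CPM (117 to 122) in the stretched bottom, 62.3 (61.3 to 63.4) among stretched top and 65.4 (64.3 to 66.5) in the unstretched top library. Its ratios of 1.92 (1.87 to 1.97) and 1.83 (1.78 to 1.88) for the bottom over the stretched and over the unstretched top were the highest of the 10, and it stood at rank 149 of the 8870 genes in the first.

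HERPUD1 and XBP1 had another order of levels. HERPUD1 encodes HERP, a membrane scaffold of the HRD1 complex that takes misfolded proteins out of the ER for degradation (ENSG00000051108, chr16:56932048-56944863). It stood at 69.2 CPM (67.3 to 71.1) in the stretched bottom, 56.2 (55.2 to 57.2) among stretched top and 77.9 (76.7 to 79.1) in the unstretched top library, so the unstretched top was highest and the stretched top lowest. The ratio of stretched over unstretched top was 0.721 (0.704 to 0.739), a log2 ratio of -0.46 where the median of all genes was -0.16, so 0.31 below it, and 2.57% of tested genes lay at or below it. It did not reach 1.5-fold. XBP1, the transcription factor (ENSG00000100219, chr22:28794555-28800597), stood at 60.9 CPM (59.2 to 62.7) in the stretched bottom, 55.1 (54.1 to 56.1) among stretched top and 61.3 (60.3 to 62.4) in the unstretched top library. The intervals of the stretched bottom and unstretched top libraries overlap. Counts at the 3′ end do not separate spliced from unspliced XBP1 mRNA, so the level says nothing of IRE1 activity.

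**Figure D2:**
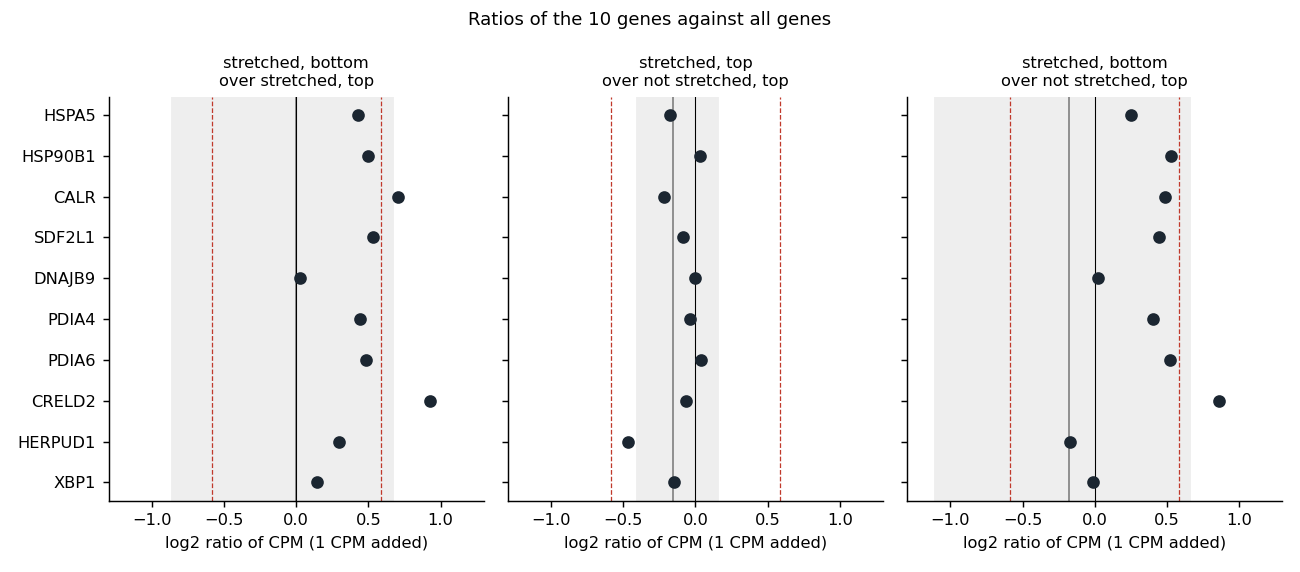
Each dot is the log2 ratio of CPM (1 CPM added) of a gene, with 1 panel for each of the 3 comparisons; the grey band spans the 5th to 95th percentile of all genes with at least 10 CPM, the grey line is their median and the dashed lines mark 1.5-fold. CRELD2 and CALR lie past the line at 0.93 and 0.70 in the left panel, and HERPUD1 lies furthest left in the middle panel at -0.46.

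Against the unstretched top library, the stretched bottom had 1 gene of 10 at least 1.5-fold higher, CRELD2, and 0 lower. The count was 6 under TMM, median of ratios scaling or equal weights for depth bins. The share of all genes that were 1.5-fold higher rose there too, to 14.9%, 17.2% and 12.3% in that order. On the CPM scale used elsewhere, 6.8% of 9218 genes were past the threshold upwards and 20.7% downwards, 27.5% in all. The median log2 ratio was 0.42 for the 10 genes and -0.18 for all genes. HERPUD1 had a ratio of 0.888 and XBP1 of 0.994 here. The 2 comparisons of the bottom library share libraries with those above, so these ratios are not separate evidence. Scaling the libraries by TMM moved the all-gene median of stretched over unstretched top to 0.02. Under it 7 of the 10 log2 ratios of that comparison were above 0, HERPUD1 was at -0.29 and CALR at -0.04. HERPUD1 and CALR were below 0 in all 15 alternatives run for that comparison. The sign of HERPUD1 for stretched bottom over unstretched top turned with scaling, at 0.05 under TMM, and 14.9% of all genes were then 1.5-fold higher and 11.2% lower there. XBP1 was above 0 in 9 and DNAJB9 in 12 of the 15 alternatives of that comparison.

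The share of cells with a UMI followed the levels. After thinning every cell to 3000 UMIs, CRELD2 was seen in 28.7% (26.6 to 30.9) of stretched bottom, 16.2% (15.6 to 16.7) of stretched top and 16.4% (15.8 to 17.0) of unstretched top cells. Before thinning CRELD2 was seen in 80.6% of stretched bottom, 41.7% of stretched top and 46.4% of unstretched top cells. CALR was seen in 84.3% of stretched bottom, 68.6% of stretched top and 72.2% of unstretched top thinned cells (unthinned 92.0%, 89.3% and 89.2%). HERPUD1 was seen in 19.9% of stretched bottom, 15.4% of stretched top and 20.2% of unstretched top thinned cells (unthinned 72.4%, 38.6% and 49.4%). The CRELD2 share was thus higher in the bottom than in either top library, while that of HERPUD1 was close to the unstretched top. DNAJB9 was seen in 5.32% of stretched bottom, 5.33% of stretched top and 5.54% of unstretched top thinned cells (unthinned 41.2%, 15.6% and 17.7%). HSP90B1 was seen in 90.1% of stretched bottom, 84.5% of stretched top and 83.8% of unstretched top thinned cells, an order that the unthinned shares of 91.3%, 94.7% and 92.8% did not have. Thinning left out 242 stretched bottom, 1205 stretched top and 1507 unstretched top cells with under 3000 UMIs. No cell type that lacks these genes was present to give a background share. The median thinned cell carried UMIs of 5 of the 10 genes in the stretched bottom library and of 4 in each top library. Cells with none made up 0.410% of stretched bottom, 0.782% of stretched top and 0.586% of unstretched top cells.

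The level of the set varied with the depth of the cell in the bottom library, between 2219 and 4617 CPM, and between 2206 and 2520 CPM in the top libraries. Bins of depth hold their lower and not their upper bound. Stretched bottom cells with 10000 to 20000 UMIs (156 cells) had a summed level of 4617 CPM, against 2237 CPM in stretched top cells (7620) and 2359 CPM in unstretched top cells (7046) of that depth. The ratio to the stretched top was 2.06, and 7 of 10 genes were at least 1.5-fold higher. All genes moved too: 38.3% of 9541 tested were 1.5-fold higher there. In cells of 20000 to 40000 UMIs, where 5.44% of all genes were 1.5-fold higher and the all-gene median was 0.02, 6 of 10 were past the threshold and the summed ratio was 1.68. There HSPA5 stood at 549 CPM in the stretched bottom (400 cells), 293 in the stretched top (1462 cells) and 323 in the unstretched top library (2389 cells). The 6 were HSPA5, HSP90B1, CALR, PDIA4, PDIA6 and CRELD2. Depth was not equal within this bin, with a median of 32813 UMIs in stretched bottom, 23130 in stretched top and 24363 in unstretched top cells. The median mitochondrial share was 5.06%, 8.20% and 7.97% in that order.

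The shallowest cells went the other way. Among cells of 1000 to 5000 UMIs the summed level was 2219 CPM in 314 stretched bottom cells, 2517 CPM in 2939 stretched top cells and 2407 CPM in 2336 unstretched top cells. Their median depth was unlike, at 1752.5 UMIs in stretched bottom, 3557 in stretched top and 2054 in unstretched top cells. So was their median mitochondrial share, at 2.88%, 11.2% and 3.21% in that order. In that bin 2 genes were 1.5-fold higher in the bottom than in the stretched top library, CALR and CRELD2, and 4 were 1.5-fold lower, HSPA5, HSP90B1, DNAJB9 and XBP1, where 30.2% and 13.7% of all genes were past the threshold. HSPA5 stood at 311 CPM in stretched bottom, 487 in stretched top and 505 in unstretched top cells of this bin. CRELD2 was higher in the bottom library in every bin shared by the libraries, at 103 to 135 CPM up to 40000 UMIs, against 49.3 to 65.5 CPM in the stretched top. The deepest bottom cells, of 80000 UMIs or more, had 2816 CPM for the set.

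**Figure D3:**
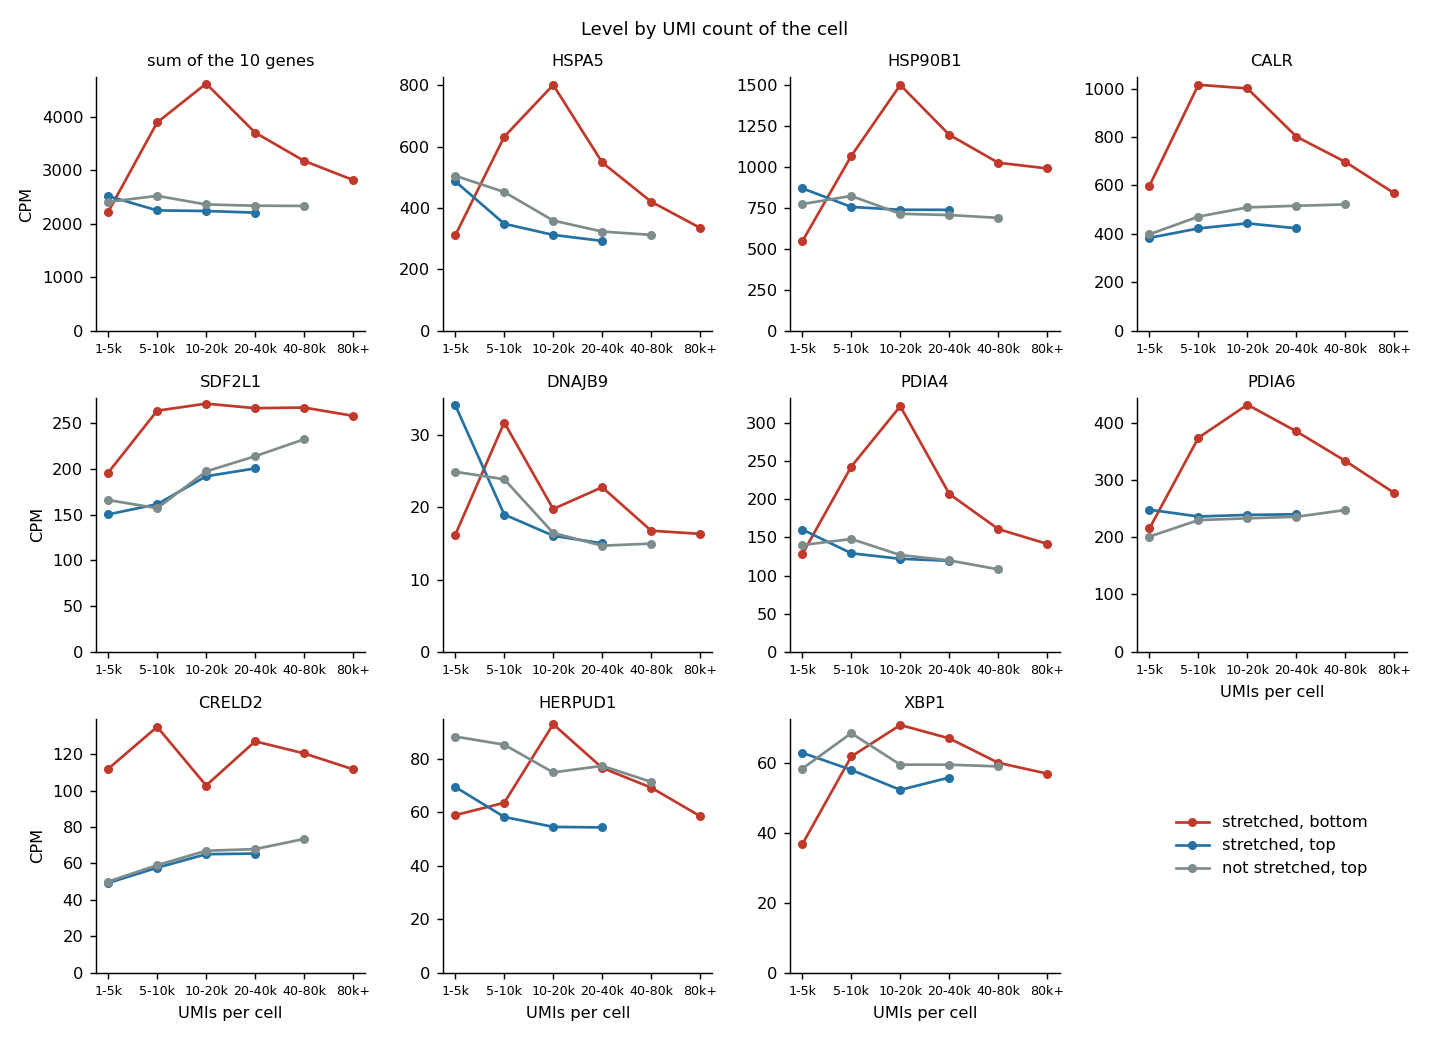
Each panel plots CPM against the UMI count of the cell, in bins of 1000 to 5000, 5000 to 10000, 10000 to 20000, 20000 to 40000, 40000 to 80000 and 80000 or more UMIs, for the sum of the 10 genes and for each gene in the 3 libraries; bins with under 20 cells are not drawn. The stretched bottom line peaks at 4617 CPM for the sum at 10000 to 20000 UMIs, while the top libraries stay between 2206 and 2520 CPM.

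The mitochondrial share of UMIs moved with this pattern. In the stretched bottom library the summed level was 3068 CPM in cells of at most 5% mitochondrial UMIs (1323 cells), 3715 CPM at 5 to 10% (429 cells) and 5065 CPM at 10 to 20% (199 cells). The stretched top library had 2271 CPM in the lowest of these bins, 2280 in the middle and 2213 in the highest, and the unstretched top library 2437, 2401 and 2350 CPM. Barcodes over 20%, which the cell filter left out, had 3583 CPM in the stretched bottom (386), 2077 in the stretched top (1813) and 1958 in the unstretched top library (2547). The rise in the bottom library thus did not go on above 20%. In the bin of 10 to 20%, 46.7% of all genes were 1.5-fold higher in the bottom than in the stretched top library, and 7 of the 10 were. At 5 to 10%, 4.7% of all genes and 6 of the 10 were. The part that mitochondrial share and depth have in the difference was not tested further.

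Cell cycle phase sorted the genes into groups within each top library. SDF2L1 was higher in S than in G1 cells, by 1.63-fold in the stretched top and 1.62-fold in the unstretched top library, and by 1.27-fold in the stretched bottom. CRELD2 and CALR were also higher in S and G2/M cells of the top libraries, CRELD2 at 69.2 CPM in G2/M and 53.4 CPM in G1 cells of the stretched top and at 71.6 and 57.3 CPM in those of the unstretched top library. The G2/M over G1 ratio of CALR was 1.19 in the stretched top and 1.21 in the unstretched top library. DNAJB9 ran the other way, at 25.6 CPM in G1 and 15.5 in G2/M cells of the stretched bottom, 22.5 and 14.3 in those of the stretched top, and 24.3 and 13.4 in those of the unstretched top library. HSPA5, HERPUD1 and XBP1 were lower in G2/M than in G1 in all 3 libraries, with ratios between 0.785 and 0.877. Cells called G2/M made up 58.2% of stretched bottom, 36.8% of stretched top and 34.3% of unstretched top cells. Cells called G1 made up 22.5% of stretched bottom, 49.2% of stretched top and 50.4% of unstretched top cells. Within G1 cells alone, 4 of 10 genes were 1.5-fold higher in the bottom than in the stretched top library (10.1% of all genes), within S cells 2 (4.56%) and within G2/M cells 2 (4.83%). CRELD2 and CALR were past the threshold in all 3 phases.

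HSPA5 varied more between cells of a top library than nearly any gene of its level. After thinning, the variance over the mean of its UMIs was 1.71 in the stretched bottom, 2.48 in the stretched top and 3.43 in the unstretched top library. Among genes within a factor of 1.5 of its mean, HSPA5 lay at percentile 86.8 of 265 in the stretched bottom, 99.0 of 295 in the stretched top and 100 of 239 in the unstretched top library. Their median was 1.14 to 1.19. HSP90B1 had 2.03 in the stretched bottom, 2.04 in the stretched top and 2.57 in the unstretched top library. CRELD2 and XBP1 stayed between 1.05 and 1.11.

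A small fraction of cells had very high HSPA5. At a threshold of 8 HSPA5 UMIs of 3000, chosen after the values were seen, 15 of 1709 stretched bottom cells (0.878%, 0.492 to 1.44), 153 of 18916 stretched top cells (0.809%, 0.686 to 0.947) and 201 of 15699 unstretched top cells (1.28%, 1.11 to 1.47) were HSPA5-high. The threshold cuts a range of values and defines no cell type. In all, 22 stretched bottom, 97 stretched top and 89 unstretched top cells lay just below at 6 or 7 UMIs, and 9 stretched bottom, 50 stretched top and 48 unstretched top cells just above at 8 or 9. The remaining 6 stretched bottom, 103 stretched top and 153 unstretched top cells had 10 or more, so most of the cells picked in the top libraries lay above the bins next to the threshold. HSPA5-high cells carried 5.77% of the thinned HSPA5 UMIs of the stretched bottom, 9.93% of those of the stretched top and 15.1% of those of the unstretched top library. The highest cell had 15 HSPA5 UMIs in the stretched bottom, 38 in the stretched top and 42 in the unstretched top library.

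In both top libraries the HSPA5-high cells had higher levels of the other 9 genes as well. How many of all genes were higher in these cells was not counted, so the 9 have no background share beside them. DNAJB9 stood at 183 CPM in HSPA5-high against 17.7 CPM in other stretched top cells, and at 191 against 17.7 CPM in unstretched top cells, ratios of 10.3 (8.16 to 12.9) and 10.8 (8.79 to 13.1). HERPUD1 stood at 346 against 56.4 CPM and at 514 against 76.3 CPM, ratios of 6.14 and 6.74. PDIA4 had ratios of 7.42 and 6.35 and HSP90B1 of 5.53 and 6.28. The lowest ratios were those of XBP1 in the stretched top, 2.65, and of PDIA6 in the unstretched top, 2.97. DNAJB9, PDIA4 and HERPUD1 had the 3 highest ratios in each top library, although DNAJB9 had a ratio of 1.02 between the bottom and the stretched top library.

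Some genes outside the set were looked at in the same cells. In the stretched top library P4HB had a ratio of 3.83, ASNS of 3.64, PPIB of 2.36 and DDIT4 of 1.92. MANF, a secreted ER stress protein, stood at 878 CPM in HSPA5-high and 156 CPM in other stretched top cells, and at 753 against 148 CPM in unstretched top cells. HYOU1, an ER nucleotide exchange factor, had ratios of 6.36 and 6.04, and SEL1L, the partner of HRD1, of 6.53 and 7.88. TRIB3, an ATF4 and CHOP target, had ratios of 5.18 and 4.08. DDIT3, which encodes CHOP, had ratios of 1.86 (1.13 to 2.88) and 2.80 (2.17 to 3.57), and ATF4 of 2.08 and 1.81. PPP1R15A, which encodes GADD34, had a ratio of 0.921 (0.489 to 1.58) among stretched top and 1.98 (1.46 to 2.64) in the unstretched top library. ASNS, DDIT4, SEL1L, DDIT3, ATF4 and PPP1R15A were named after their values were seen.

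The HSPA5-high cells differed from the others in depth and phase. Their median UMI count was 18791 in the stretched bottom, 5234 in the stretched top and 6757 in the unstretched top library, against 44542.5 in other stretched bottom, 9821 in other stretched top and 11756.5 in other unstretched top cells. G1 calls made up 86.9% of HSPA5-high and 48.9% of other stretched top cells, and 92.0% against 49.9% of unstretched top cells. The median mitochondrial share was 13.1% in HSPA5-high and 10.6% in other stretched top cells, and 12.9% against 9.95% in unstretched top cells. Among cells under 10000 UMIs, DNAJB9 was still 8.76-fold higher in HSPA5-high cells of the stretched top and 9.70-fold higher in those of the unstretched top library, and HERPUD1 6.30-fold and 7.30-fold higher. At 5000 to 10000 UMIs the HSPA5-high share was 3.45% (0.717 to 9.75) in the stretched bottom, 0.878% (0.686 to 1.11) among stretched top and 1.93% (1.58 to 2.34) in the unstretched top library. At 10000 to 20000 UMIs it was 3.21% (1.05 to 7.32) in the stretched bottom, 0.197% (0.110 to 0.324) among stretched top and 0.596% (0.430 to 0.805) in the unstretched top library. At 20000 to 40000 UMIs it was 5 of 400 cells in the stretched bottom, 2 of 1462 in the stretched top and 4 of 2389 in the unstretched top library. At 3000 to 5000 UMIs the order was the other way, with 0 of 72 cells in the stretched bottom (up to 4.99%), 3.75% (2.90 to 4.75) among stretched top and 6.15% (4.61 to 8.01) in the unstretched top library. The pooled shares of the stretched libraries, 0.878% and 0.809%, thus cover bins with unlike shares. In the bin of 3000 to 5000 UMIs the interval of the bottom held the stretched top value. In the 15 HSPA5-high stretched bottom cells, 60% of them called G1, the other genes rested on 2 to 104 UMIs. The ratio was 2.13 (1.73 to 2.58) for HSP90B1 there, and for SDF2L1, DNAJB9, PDIA4, CRELD2 and HERPUD1 the interval held 1. Without the HSPA5-high cells the log2 ratio of HERPUD1 in stretched over unstretched top was -0.43 and that of HSPA5 was -0.13.

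**Figure D4:**
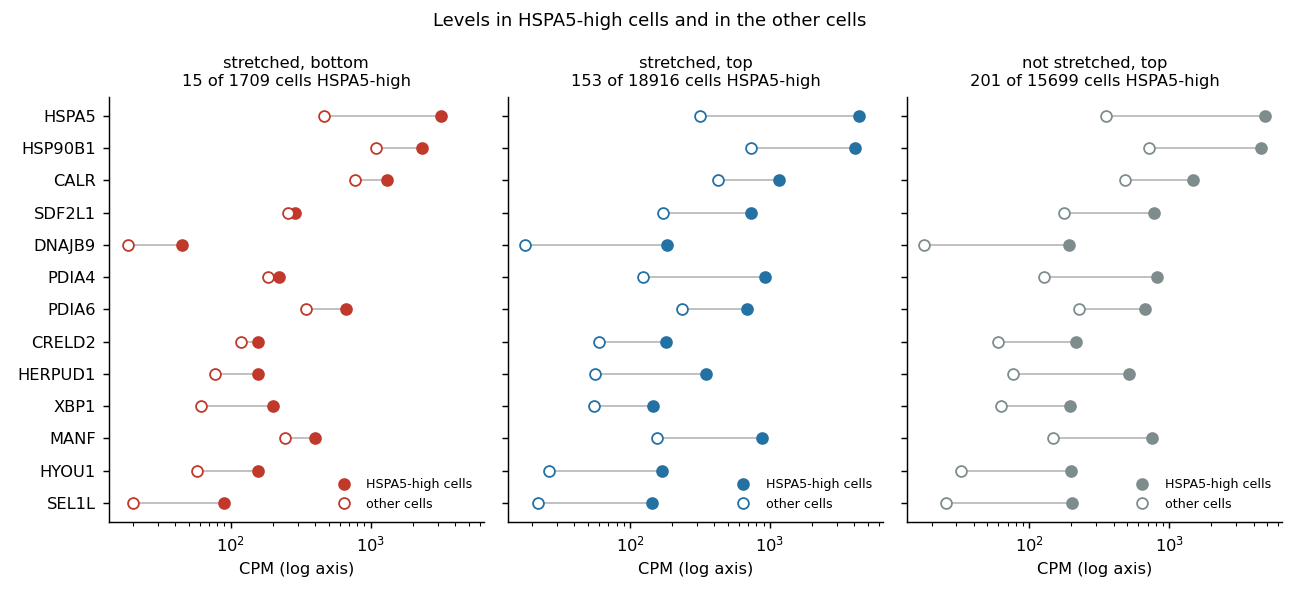
Filled dots are CPM in HSPA5-high cells (8 or more HSPA5 UMIs of 3000) and open dots CPM in all other thinned cells, on a log axis, for the 10 genes and 3 further ER genes, with 1 panel a library. HSPA5 itself was used to pick the cells. In the top libraries DNAJB9 stands 10.3-fold and 10.8-fold higher in the picked cells. In the stretched bottom library only 15 cells were picked, and the other 9 genes of the set stand 1.13-fold (SDF2L1) to 3.29-fold (XBP1) higher.

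A different small fraction of top-channel cells had another profile of the set. Cells with 5 or more UMIs of the enterocyte genes APOA1, APOA2 and FABP1 numbered 0 of 1951 in the stretched bottom, 437 of 20121 in the stretched top and 419 of 17206 in the unstretched top library. XBP1 stood at 126 CPM in them and 52.9 CPM in other stretched top cells, and at 132 against 58.8 CPM in unstretched top cells. PDIA6 was 1.75-fold and 1.73-fold higher and HERPUD1 1.46-fold and 1.53-fold higher. SDF2L1 had ratios of 0.700 and 0.583 and CRELD2 of 0.637 and 0.548, while HSPA5 had 0.901 and 0.820. Only 1 cell of the unstretched top library was in both groups, and 0 of the stretched top.

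Across cells of a library the genes tracked each other weakly in these sparse counts, and the values are given as a description. The median Pearson correlation over 45 pairs was 0.04 in the stretched bottom (1709 cells), 0.05 in the stretched top (18916) and 0.08 in the unstretched top library (15699). HSPA5 with HSP90B1 had 0.22 in the stretched bottom, 0.20 in the stretched top and 0.26 in the unstretched top library. Of 2582 other genes with at least 50 CPM in every library, the 10 with the highest mean correlation to the summed set were PPIB, P4HB, MANF, PDIA3, MYDGF, CANX, TMED9, TMBIM6, CD63 and MT-ND2, at 0.25 for the first and 0.13 for the last. The first 7 encode ER or ER to Golgi proteins. PPIB, cyclophilin B of the ER, stood at 960 CPM in the stretched bottom, 603 in the stretched top and 587 in the unstretched top library.

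Lists of related genes were compared for the bottom over the stretched top library, where 7.93% of all genes were 1.5-fold higher and 11% lower. Of 29 measured other ER chaperones and cochaperones, 5 were higher and 0 lower, with a median log2 ratio of 0.37. SERPINH1, the collagen chaperone, stood at 72.3 CPM in the stretched bottom, 40.7 in the stretched top and 36.8 in the unstretched top library. HYOU1 stood at 49.0 CPM in the stretched bottom, 27.7 in the stretched top and 33.3 in the unstretched top library. DNAJB11 stood at 86.5 CPM in the stretched bottom and 51.0 in the stretched top library, but 45.1% of its last 1000 exonic bases overlap another gene. Of 17 other disulfide isomerases and oxidases 3 were higher, TXNDC12, TXNDC15 and GPX8, and 1 was lower. That 1 was ERO1A, the oxidase that recharges isomerases, at 57.6 CPM in the stretched bottom, 96.3 in the stretched top and 88.4 in the unstretched top library. For TXNDC12 the overlap was 86%, so its reads may belong to a neighbour.

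Other steps of secretion had between 2 and 4 genes higher in each list. Of 26 genes of N-glycan processing 2 were higher and 0 lower (median 0.16), KRTCAP2 and DPM2, a subunit of the oligosaccharyltransferase and one of dolichol-phosphate mannose synthase. DDOST had a ratio of 1.49, just under the threshold, with 42.7% of its last 1000 exonic bases in overlap, and KRTCAP2 had 21.9%. Of 24 translocon, signal recognition and signal peptidase genes 4 were higher and 0 lower (median 0.22). SRPRB, the membrane anchor of the signal recognition particle receptor, was 1.96-fold higher, SEC11C 1.75-fold and SRP9 1.69-fold. Of 31 genes of ER-associated degradation 2 were higher, UBXN8 and UFD1, and 1 lower, ANKZF1 (median 0.02). Of 32 genes of ER to Golgi transport 2 were higher, TMED9 and SAR1B, and 1 lower (median 0.00). TMED9 stood at 282 CPM in the stretched bottom, 148 in the stretched top and 162 in the unstretched top library, and SAR1B was 1.55-fold higher. ARFGAP3 stood at 14.4 CPM in the stretched bottom and 28.7 in the stretched top library.

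Of 16 measured sensors and transcription factors of the response, 0 were 1.5-fold higher and 2 lower in the bottom library, CEBPB and GTF2I, with a median of 0.09. GTF2I has near-identical copies, so its counts are uncertain. NFYB stood at 46.1 CPM in the stretched bottom, 30.4 in the stretched top and 31.3 in the unstretched top library. Its ratio of bottom over stretched top was 1.52, but with 1 CPM added it fell just under the threshold. ATF6 stood at 43.3 CPM in the stretched bottom, 38.8 in the stretched top and 42.1 in the unstretched top library. ERN1, which encodes IRE1 alpha, stood at 17.4 CPM in the stretched bottom, 18.1 in the stretched top and 21.9 in the unstretched top library. EIF2AK3, which encodes PERK, stood at 12.3 CPM in the stretched bottom, 12.0 in the stretched top and 15.3 in the unstretched top library. Between the top libraries DDIT3 was 1.5-fold lower, at 22.8 CPM in the stretched top and 40.5 CPM in the unstretched top library, and the median of 17 was -0.26 where that of all genes was -0.16.

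Of 30 measured PERK, ATF4 and CHOP targets, 9 were higher and 0 lower in the bottom than in the stretched top library, with a median of 0.27. SLC3A2, the heavy chain of amino acid exchangers, stood at 344 CPM in the stretched bottom, 147 in the stretched top and 164 in the unstretched top library. Its light chain SLC7A5 stood at 152 CPM in the stretched bottom, 74.3 in the stretched top and 83.7 in the unstretched top library. TRIB3 stood at 40.8 CPM in the stretched bottom, 20.2 in the stretched top and 23.3 in the unstretched top library. The other 6 were PPP1R15A, ASNS, PSAT1, SLC1A5 and the tRNA synthetases SARS and NARS. Between the top libraries 0 were higher and 2 lower, SESN2 and DDIT4, with DDIT4 at 44.8 CPM in the stretched top and 99.5 CPM in the unstretched top library. Of 14 ER calcium genes 0 were higher and 3 lower in the bottom library, STIM1, ITPR2 and ORAI3 (median -0.14), with 38.1% of the last 1000 exonic bases of ORAI3 and 12.6% of those of ITPR2 overlapping another gene.

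Of 27 cytosolic chaperones measured, 15 were higher and 0 lower in the bottom than in the stretched top library, with a median log2 ratio of 0.64. HSPA8, the constitutive HSP70, stood at 959 CPM in the stretched bottom and 489 in the stretched top library. DNAJB1 and DNAJB4 were 2.12-fold and 2.96-fold higher, and 4 of the 15, CCT4, CCT5, CCT6A and TCP1, encode subunits of the chaperonin that folds actin and tubulin. HSPA1B was 5.70-fold higher, at 178 CPM in the stretched bottom, 31.2 in the stretched top and 45.6 in the unstretched top library, but it shares sequence with HSPA1A and its split from that copy is uncertain. With depth bins weighted equally, 5 cytosolic chaperones were called, where 22.5% of all genes were 1.5-fold higher, and 16 of the other ER chaperones were. Cell cycle genes moved with these lists: 22 of 54 G2/M genes and 12 of 42 S phase genes were 1.5-fold higher in the bottom library and 0 lower. Their part in the lists was not tested.

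**Figure D5:**
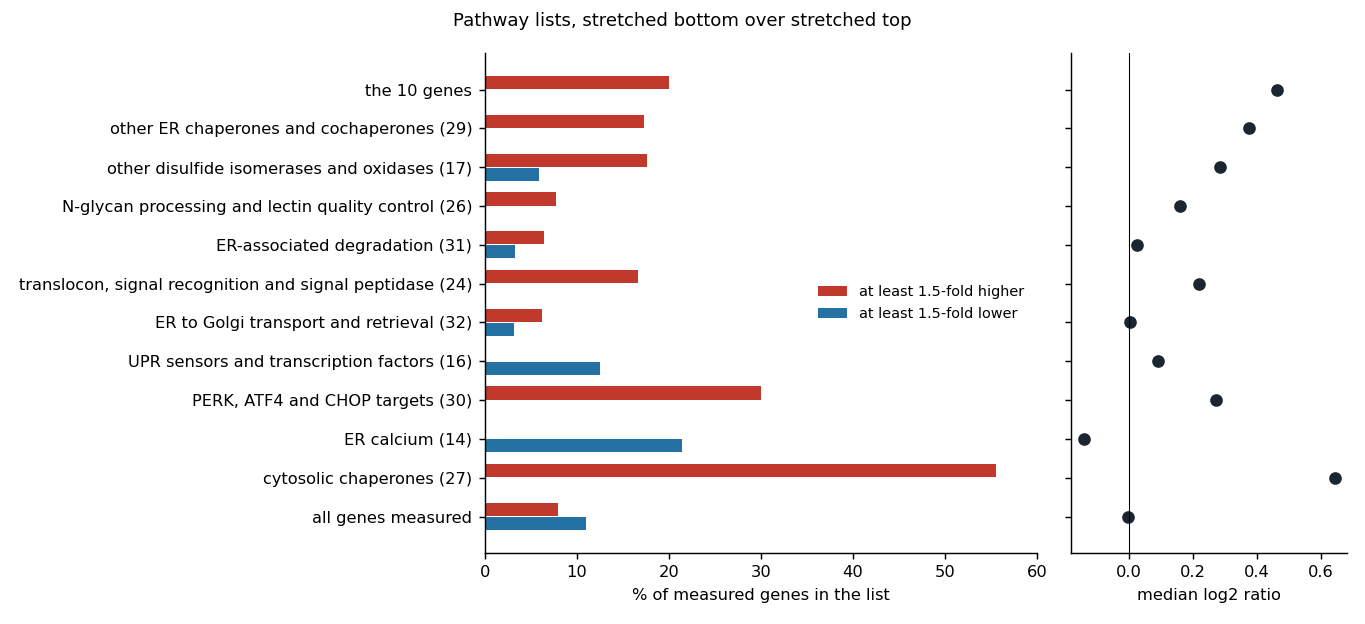
Bars give the percentage of measured genes in each list that were at least 1.5-fold higher (red) or lower (blue) in the stretched bottom over the stretched top library, and dots the median log2 ratio; the number measured is in brackets. Cytosolic chaperones have 15 of 27 genes and a median of 0.64 here, but 5 genes with depth bins weighted equally, against 16 other ER chaperones; the 10 genes have 2 and 0.46, and all genes have 7.93% higher, 11% lower and a median of -0.00.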

How the data were processed

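The values used are the deposited UMI counts, unnormalized, from Cell Ranger 7.0.0 per the file headers and on hg38 per the submitters' processing notes. Which annotation they used is not given in the sources used here. A barcode was a cell if it had 500 genes or more, 1000 UMIs or more and no more than 20% mitochondrial UMIs, which left 76641034 UMIs in the stretched bottom, 210814252 in the stretched top and 212503735 in the unstretched top library. This filter left out 44.5% of stretched bottom, 20.1% of stretched top and 34.1% of unstretched top barcodes. No doublet caller was run, and an alternative left out the 5% of cells with the most UMIs. UMIs were summed over kept cells and divided by the library total (CPM). A count of 0 allows up to 0.0391, 0.0142 and 0.0141 CPM (3 counts) in that order. Log2 ratios used 1 CPM added, and called genes were at least 1.5-fold apart with at least 10 CPM in either library. With 1 library a group, no test between groups was made. CPM intervals are exact Poisson, ratio intervals exact conditional binomial and share intervals Clopper-Pearson, all at 95% and for counting error only.

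For shares, spread, correlations and phases each cell was thinned to 3000 UMIs. Phases were called with scanpy 1.11.5 on the 3 libraries pooled. Members and lists were chosen with earlier results of these data known. The named genes were the 10 members, the 10 genes most correlated with the set, cell type markers and 3 genes of each list. Those 3 had the largest log2 ratio of bottom over stretched top in either direction, and none were picked from the cell cycle lists. Other genes were named after their values were seen. Of 39 symbols in the PERK list, all matched once current symbols were traced to the files' older ones by gene ID. Gene positions and overlaps of the last 1000 exonic bases came from GENCODE release 29, and promoters from RefSeq (GRCh38.p14). Protein sequences were not analysed here. The ratio step was tested on simulated counts. TMM and median of ratios factors used edgeR 4.0.16 in R 4.3.3, and the rest scipy 1.17.1, numpy 2.4.6, matplotlib 3.10.9 and pandas 2.3.3 under Python 3.11.15.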

Additional observations from a re-analysis of the deposited data

How the results depend on the processing

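No paired analysis was possible because each group has 1 library. Over 15 alternatives besides the 2-fold threshold, of which leaving out HSPA5-high cells and leaving out cells under 5000 UMIs were chosen after seeing the data, 1 to 6 of the 10 genes were at least 1.5-fold higher in the stretched bottom over the stretched top library and 0 were lower. The count of 2 became 1 with the stricter cell filter (2000 genes, 5000 UMIs, 10% mitochondrial), where 4.01% of all genes were higher. It was also 1 with totals without mitochondrial and ribosomal protein genes, where 4.02% were higher. It became 6 with 3 depth bins weighted equally (5000 to 40000 UMIs), where 22.5% of all genes were higher and their median was 0.25. At 2-fold it was 0. CRELD2 was past the threshold in 15 of 15 alternatives and CALR in 13. Over the unstretched top library the count of 1 became 6 with TMM, with median of ratios scaling and with depth bins weighted equally. The shares of all genes higher were then 14.9%, 17.2% and 12.3%. It became 2 with equal cell weights (7.57% of all genes), 3 with thinned cells (8.54%) and 0 at 2-fold. The cause of these moves was not tested. In stretched over unstretched top the counts stayed at 0. The median of the 10 genes stayed above that of all genes in all 15 alternatives of each comparison, by 0.34 to 0.49 for bottom over stretched top. DNAJB9 changed sign in bottom over stretched top (-0.10 to 0.54). The 15 cytosolic chaperones called became 6 with the stricter filter, 9 with those reduced totals and 5 with equal depth bin weights. The share of all genes higher was 4.01%, 4.02% and 22.5% in that order, against 7.93% without these changes. Under those weights the other ER chaperones called became 16 in place of 5, N-glycan genes 14 in place of 2, disulfide isomerases 10 in place of 3, ER-associated degradation genes 8 in place of 2, sensors 6 in place of 0, PERK, ATF4 and CHOP targets 14 in place of 9, and G2/M genes 7 in place of 22. The other values recomputed were single ratios, medians, list counts and shares, with further CPM minimums and thinning depths. Of them 580 stayed, 346 moved, 23 newly passed the threshold and 2 no longer did. Called ratios stayed if still past the threshold, and other ratios and shares if within counting error. Counts stayed if within a factor of 1.5, and medians if nearly unchanged. The 1 library a group limits every comparison, and the 87 to 400 bottom cells in each of those 3 depth bins limit their values.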
